A study of Mus musculus with 6 samples.

Results

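The gamma crystallins are 8 mouse genes, Cryga, Crygb, Crygc, Crygd, Cryge, Crygf, Crygn and Crygs, measured here in lenses of transgenic and wild-type mice. All probe sets annotated to any of these genes were taken, also those whose annotation names a second gene, which gave 8 of the 45037 non-control probe sets of the Affymetrix arrays. Single-gene probe sets stand for Cryga, Crygb, Crygd, Crygf, Crygn and Crygs. One further probe set names Crygb together with Crygc, and another names Cryga together with its neighbour D630023F18Rik. Cryge is named by no probe set, so 7 of the 8 genes are covered.

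Whole lenses were collected from Balb/c mice at 2 days of age, and total RNA was hybridised to 1 array per sample. The transgenic group has 3 samples and the wild-type group has 3. The labels name neither the transgene nor the promoter that drives it, and they state no other allele or treatment in either group. The design text gives 12 lenses per genotype without saying how they were divided, and nothing says that the replicates came from separate animals. The p-values therefore rest on a spread between samples that may be only technical. Transgenic replicates are written T1 to T3 and wild-type replicates W1 to W3. The values are the deposited log2 values, on which 1 unit is a doubling.

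Crystallins are the proteins that fill lens fiber cells and give the lens its refractive power. Gamma crystallins are small monomeric proteins, each with a pair of beta-gamma domains, and their high solubility allows the dense packing of the lens nucleus. The chromosome 1 genes are switched on as fiber cells differentiate, whereas Crygs is the member typical of later-formed fibers. In the mouse, mutations of several of these genes cause cataract.

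In the RefSeq annotation of GRCm38.p6, Cryge, Crygd, Crygc, Crygb and Cryga follow one another on chromosome 1, with D630023F18Rik next to Cryga. Crygf lies apart on chromosome 1, between Pth2r and Map2, while Crygn lies on chromosome 5 and Crygs on chromosome 16. The 100 bases before each gene's start, from RefSeq's GRCm38.p6, are shown because they let the members be compared by sequence. They run 5′ to 3′ on the strand of the gene, and capitals mark TATATA, or TATAAA in Crygs, where it lies nearest the start.
Crygf (chr1:65926422-65926521, plus strand): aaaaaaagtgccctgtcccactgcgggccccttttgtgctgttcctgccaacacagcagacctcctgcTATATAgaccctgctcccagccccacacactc
Cryge (chr1:65051164-65051263, minus strand): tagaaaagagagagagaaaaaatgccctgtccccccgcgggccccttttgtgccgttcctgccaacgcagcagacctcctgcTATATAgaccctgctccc
Crygd (chr1:65063441-65063540, minus strand): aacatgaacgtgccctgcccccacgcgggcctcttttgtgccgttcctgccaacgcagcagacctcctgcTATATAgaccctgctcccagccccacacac
Crygc (chr1:65073533-65073632, minus strand): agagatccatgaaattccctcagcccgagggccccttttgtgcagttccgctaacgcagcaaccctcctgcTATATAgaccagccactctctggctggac
Crygb (chr1:65082291-65082390, minus strand): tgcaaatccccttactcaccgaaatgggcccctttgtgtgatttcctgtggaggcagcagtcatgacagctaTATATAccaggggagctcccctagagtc
Cryga (chr1:65103364-65103463, minus strand): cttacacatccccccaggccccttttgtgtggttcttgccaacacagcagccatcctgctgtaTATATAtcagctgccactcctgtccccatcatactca
Crygn (chr5:24757849-24757948, minus strand): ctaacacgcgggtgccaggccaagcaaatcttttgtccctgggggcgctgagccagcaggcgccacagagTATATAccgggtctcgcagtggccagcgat
Crygs (chr16:22811411-22811510, minus strand): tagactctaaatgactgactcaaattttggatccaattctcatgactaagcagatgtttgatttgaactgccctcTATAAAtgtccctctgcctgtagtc
All 6 chromosome 1 genes and Crygn hold TATATA within the 250 bases before the start, which 5.25% of 32851 promoters of that length hold on either strand. Crygs holds TATAAA instead, as 12.4% of promoters do. The run TTTGTG, of the same length as TATATA, is also common to the 6 chromosome 1 genes. It is absent from the windows of Crygn and Crygs and is held by 15.6% of promoters on either strand. In these 100 bases Crygd and Crygf were identical in 88.3% of the columns of a global alignment, the highest share of any pair. The TATATA nearest the start begins at base -18 in Cryge, -30 in Crygd and -32 in Crygf. The shares over 100 bases therefore also depend on where each start is annotated. Over 250 bases Cryge and Crygf, of which Cryge has no probe set here, were identical in 80.7% of the columns. Crygn and Crygs were identical in 46.6% of the columns over 100 bases. The half-site TGCTGA, bound by MAF factors, occurs on either strand in the 250 bases of Cryga, Crygc, Crygn and Crygs, and in 16.1% of all promoters. The run AACAAT, of the kind bound by SOX factors, occurs on either strand before Crygd and Crygs and in 9.42% of promoters. These matches describe the letters in these windows.

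The fiber membrane gene Mip was high in every array, at 13.26 to 13.51 in transgenic and 13.29 to 13.32 in wild-type lenses. Some lens markers were dimmer, such as Birc7 (mean of 8.46 over the arrays) and Cdh1 (8.26). Of 7 measured genes on a list of fiber cell genes, not all of them structural, 2 were lower by their brightest probe set and 0 were higher. The lower ones were Bfsp1 (-1.70), a structural gene, and Birc7 (-1.67), which is not one. The mean log2 level of the 7 was 11.91 to 12.12 in transgenic and 12.56 to 12.62 in wild-type lenses. Of their 9 probe sets 3 were called lower (limma), which is 33.3% against 2.42% of all probe sets. These included a dimmer probe set of Gja3 (-0.83). Of the 9 probe sets, 6 had an unadjusted p under 0.05 (limma), that of Grifin with transgenic lenses higher. By their brightest probe sets 5 of the genes lay below 0 and 2 above, Mip (0.064) and Grifin (0.23). Lens epithelium markers (6 genes, Foxe3 among them) averaged 10.76 to 10.82 in transgenic and 9.90 to 10.18 in wild-type lenses. Of these 6 genes only Foxe3 was called, 4.59 log2 units higher in transgenic lenses, and the median difference of the 6 by their brightest probe sets was 0.057. The others were at -0.25 (Pax6), 0.079 (Cdh1), 0.47 (Gja1), 0.035 (Pdgfra) and -0.32 (Dkk3), so the higher mean of the list rests on Foxe3. Of the 18 epithelium probe sets 5 had an unadjusted p under 0.05 (limma). Epidermis markers (10 genes) averaged 5.87, 6.03 and 10.30 in the transgenic samples, with the highest in T3, and 5.88 to 6.59 in wild-type lenses. Skeletal muscle markers (9 genes) averaged 5.20 to 9.43 in transgenic lenses, again with the highest in T3, and 5.33 to 5.92 in wild-type lenses. T3 also had the lowest transgenic value of Crygf, Crygs, Crygd and Cryga. Neural retina markers (18 genes) averaged 7.04 to 7.66 in transgenic and 7.50 to 8.13 in wild-type lenses, with 17 of the 18 below 0 in the difference. Pigment epithelium markers (5 genes) averaged 7.39 to 8.81 in transgenic and 7.40 to 7.79 in wild-type lenses, and the 6 measured blood and vessel genes had a median difference of -0.16. Of the epidermis, muscle, pigment and blood markers, 0 probe sets were called (limma; 1 epidermis and 2 pigment epithelium probe sets had an unadjusted p under 0.05). Of the 34 retina probe sets 3 were called lower, which is 8.82% against 2.42% of all probe sets, and 14 had an unadjusted p under 0.05. By their brightest probe sets the retina genes called lower were Sncg (-0.89) and Elavl4 (-0.73). The part of these tissues in the gamma crystallin differences was not tested.

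Transgenic lenses had lower mean values than wild-type lenses in all 8 gamma crystallin probe sets, as in 48.8% of all probe sets. The falls passed the test in 2 of them, the probe set shared by Cryga and D630023F18Rik and the probe set of Crygf. In the other 6 the differences lay between -0.25 and -0.066 on the log2 scale and did not pass. The median over the 8 probe sets was -0.18, against 0.0059 over all 45037 probe sets. The fit across all probe sets (limma, Benjamini-Hochberg adjusted p under 0.05) called 2.42% of them lower and 1.41% higher in transgenic lenses, 3.83% in all. The groups did not overlap in 7 of the 8 gamma crystallin probe sets, each time with transgenic lenses below, as in 13.6% of all probe sets.

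The probe set that names both Cryga and D630023F18Rik showed the largest difference among the members. Its log2 values were 8.94, 9.10 and 8.99 in transgenic lenses (T1 to T3), against 10.32, 10.83 and 10.91 in wild-type lenses (W1 to W3). Every transgenic value lay more than 1 unit below every wild-type value. The difference was -1.68 ± 0.15 (SE; limma adjusted p = 0.00111), a 3.21-fold lower signal in transgenic lenses, with a 95% confidence interval of -2.03 to -1.33. The 2 probe sets that name D630023F18Rik alone were dim in every array and did not pass (limma adjusted p = 0.953 and 0.979). One stood at a mean of 3.95 in transgenic and 3.97 in wild-type lenses, and the other at 3.91 in both groups. The deposited files do not say which of the 2 genes, or which part of their transcripts, the shared probe set reads, so its fall cannot be given to Cryga. D630023F18Rik is an uncharacterised gene by its symbol, and no role is given for it here.

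Cryga encodes gammaA-crystallin and has a probe set of its own near the top of the array range. That probe set stood at 13.99, 13.91 and 13.87 in transgenic lenses, against 13.97, 14.03 and 14.01 in wild-type lenses. The groups overlapped, since T1 lay above W1. The difference was -0.079 ± 0.083 (SE; limma adjusted p = 0.634), with a 95% confidence interval of -0.27 to 0.11. The change of the shared probe set minus that of the Cryga probe set was -1.60 log2 units. In the exact permutation test over the 6 arrays this difference had p = 0.10, the smallest that 3 against 3 allows.

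Crygf, which encodes gammaF-crystallin, had the clearest fall among the probe sets of a single gamma crystallin. It stood at 13.39, 13.27 and 13.08 in the transgenic arrays, and at 13.99 in each of the 3 wild-type arrays. The SD was 0.0022 over the wild-type values and 0.15 over the transgenic values. The difference was -0.75 ± 0.10 (SE; limma adjusted p = 0.00663), which puts transgenic lenses at 59.7% of the wild-type signal on a linear scale. Its 95% confidence interval was -0.97 to -0.52. The ending of its identifier, _x_at, is the array maker's mark for probe sets in which some probes also match other sequences. The signal may therefore include related transcripts, such as those of Cryge, and their share was not tested.

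**Figure D1:**
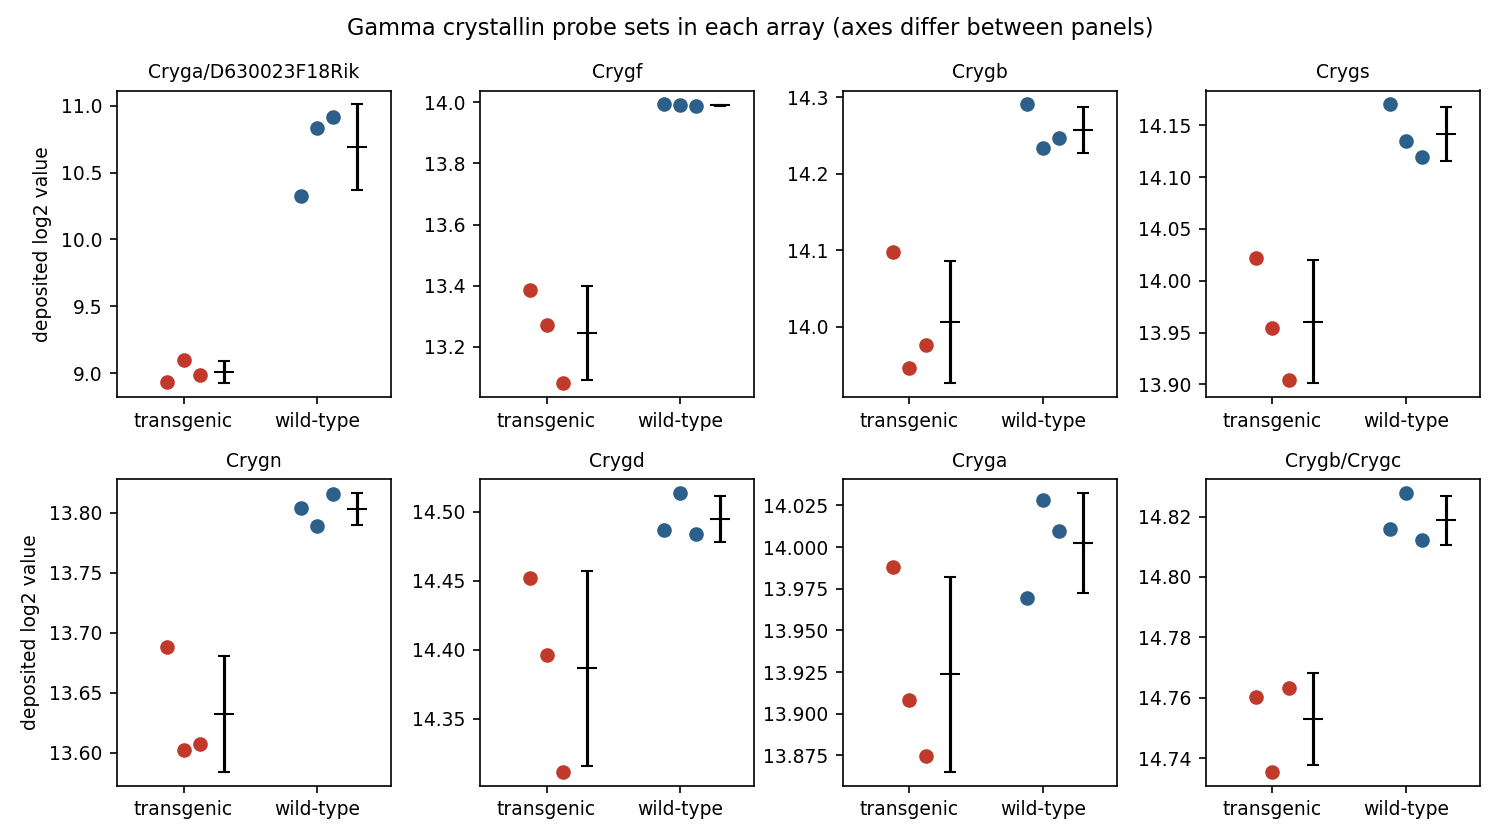
Deposited log2 values of the 8 gamma crystallin probe sets in each array, transgenic on the left and wild-type on the right of each panel. Black bars show the mean ± SD of 3 arrays, and each panel has its own axis. Crygf lay at 13.08 to 13.39 in transgenic arrays and at 13.99 in wild-type arrays.

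The remaining members of the chromosome 1 cluster differed by less. Crygb, which encodes gammaB-crystallin, stood at 14.10, 13.95 and 13.98 in transgenic lenses, against 14.29, 14.23 and 14.25 in wild-type lenses. These groups did not overlap. The difference was -0.25 ± 0.086 (SE) and did not pass (limma adjusted p = 0.147), although its own 95% confidence interval of -0.45 to -0.054 lay below 0. With trended and robust variances, which let the expected spread depend on brightness, Crygb passed (limma adjusted p = 0.0265). Over the alternatives its adjusted p ran from 0.0265 to 0.433.

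Crygd, which encodes gammaD-crystallin, stood at 14.45, 14.40 and 14.31 in transgenic lenses, against 14.49, 14.51 and 14.48 in wild-type lenses. Its difference of -0.11 ± 0.084 (SE) did not pass (limma adjusted p = 0.504), with a 95% confidence interval of -0.30 to 0.084. The probe set shared by Crygb and Crygc stood at 14.76, 14.74 and 14.76 in transgenic lenses, against 14.82, 14.83 and 14.81 in wild-type lenses. Its name ends in _s_at, the array maker's mark for probe sets that read several related transcripts. The difference was -0.066 ± 0.080 (SE) and did not pass (limma adjusted p = 0.684), with a 95% confidence interval of -0.25 to 0.12. The pooled SD of its arrays within groups was 0.012, so this SE comes mostly from the spread that limma shares across probe sets. It did not pass with trended and robust variances (limma adjusted p = 0.401) or without moderation (0.109). In both probe sets every transgenic array lay below every wild-type array, by small steps.

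The 2 members outside chromosome 1 differed by similar amounts. Crygs, which encodes gammaS-crystallin, stood at 14.02, 13.95 and 13.90 in transgenic lenses, against 14.17, 14.14 and 14.12 in wild-type lenses. The difference was -0.18 ± 0.083 (SE; limma adjusted p = 0.256), with a 95% confidence interval of -0.37 to 0.0088. Crygn, which encodes gammaN-crystallin, a member whose sequence lies between the beta and gamma groups, stood at 13.69, 13.60 and 13.61 in transgenic lenses, against 13.80, 13.79 and 13.82 in wild-type lenses. The difference was -0.17 ± 0.082 (SE; limma adjusted p = 0.275), with a 95% confidence interval of -0.36 to 0.016. For both genes the groups did not overlap, and neither difference passed. In the whole lens, fewer fiber cells and less RNA per fiber cell cannot be told apart for any of these genes.

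Changes were also compared between members, array by array, as the difference of their log2 values. This gives 28 pairs of probe sets. In 23 of them the array-wise differences did not overlap between genotypes, and these had p = 0.10 in the exact permutation test and 0.122 after Benjamini-Hochberg adjustment over the pairs. No pair could pass at 3 arrays against 3. Pairs that share a member are not independent. Crygf was in 7 of the pairs without overlap and the shared Cryga probe set in 7. The share without overlap among pairs of other probe sets was not computed, so the count of 23 has no background to be read against. The change of Crygf minus that of each other member was between -0.68 log2 units, against the probe set of Crygb and Crygc, and -0.49, against Crygb, leaving aside the shared Cryga probe set. The array-wise differences did not overlap in any of these pairs. The change of Crygs minus that of Crygn was -0.011 log2 units, with overlapping arrays (exact permutation p = 0.60). The change of Cryga minus that of the Crygb and Crygc probe set was -0.013 (exact permutation p = 0.80).

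Of the 8 probe sets, 7 lay at the top of the range of every array. The probe set of Crygb and Crygc was the brightest of all in each of the 6 arrays, so it defines the highest value, 14.74 to 14.76 in transgenic and 14.81 to 14.83 in wild-type arrays. Crygd ranked between place 6 and place 8 in transgenic arrays and between 4 and 5 in wild-type arrays. Its distance from the highest value was 0.31 to 0.45 log2 units in transgenic and 0.31 to 0.33 in wild-type arrays. Crygb lay 0.66 to 0.79 units below the highest value in transgenic arrays and 0.53 to 0.59 in wild-type arrays, at places 10 to 13 in transgenic and 9 to 10 in wild-type arrays. For Crygs the distances were 0.74 to 0.86 in transgenic and 0.65 to 0.69 in wild-type arrays. Cryga lay 0.77 to 0.89 units below in transgenic and 0.80 to 0.85 in wild-type arrays, and Crygn lay 1.07 to 1.16 below in transgenic and 1.00 to 1.04 in wild-type arrays. Measured against the top of its own array, Crygd overlapped between the genotypes, and so did Cryga. Since that top is the probe set of Crygb and Crygc, itself at lower values in transgenic arrays, this repeats the comparison of those member pairs.

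Crygf moved furthest within the top of the range. It held places 54, 66 and 109 in T1 to T3, against places 12, 14 and 14 in W1 to W3. Its distance from the highest value was 1.38 to 1.68 log2 units in transgenic arrays and 0.82 to 0.84 in wild-type arrays. On a linear scale it reached 31.1% to 38.6% of the highest value in transgenic arrays and 56.0% to 56.5% in wild-type arrays. The shared Cryga probe set lay far from the top, 5.64 to 5.82 units below the highest value in transgenic arrays and 3.90 to 4.49 in wild-type arrays. The places and distances describe single probe sets and do not rank the genes by transcript amount, since probe sets differ in how strongly they bind.

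**Figure D2:**
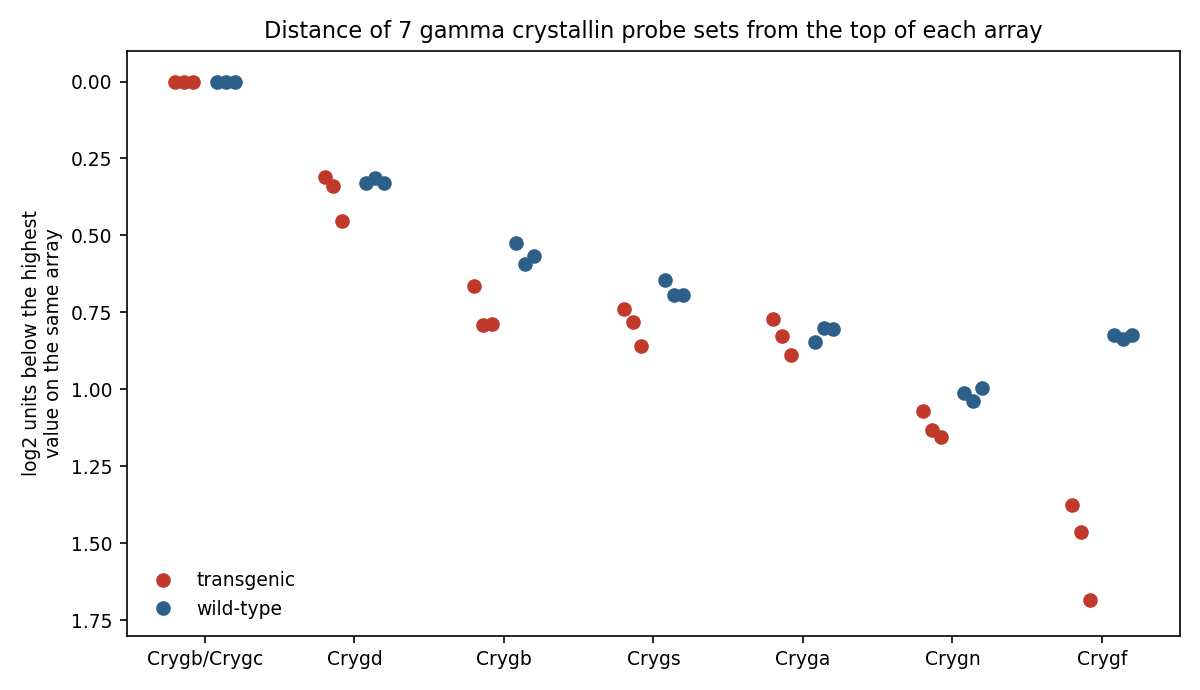
Distance of 7 gamma crystallin probe sets below the highest value of the same array, in log2 units, with 0 at the top and each point 1 array (transgenic left, wild-type right). Crygf lay 1.38 to 1.68 units below the top in transgenic arrays and 0.82 to 0.84 in wild-type arrays.

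Differences between arrays were smaller at the top of the range than lower down. The pooled SD within groups had a median of 0.049 over the 106 probe sets with a mean of at least 13, against 0.12 over the 5174 probe sets with a mean from 8 to 10. The size of the genotype difference had a median of 0.062 in the bright set and 0.15 in the set from 8 to 10. The main fit draws the spread of each probe set toward 1 value used at every brightness. The SEs of the bright gamma crystallin probe sets are therefore wider than their own arrays alone would give. Whether the signal of such bright probe sets still follows the amount of RNA in proportion was not tested. Among the 106 bright probe sets, 0.943% were called lower and 0.943% higher in transgenic lenses, 1.89% in all, which is 1 probe set each, Crygf and the intermediate filament gene Vim. Of the 7 bright gamma crystallin probe sets, 6 had transgenic values wholly below wild-type values, as did 14 of the 106 (13.2%). The lowest difference among the 106 was that of Crygf, and that of Crygb was next. The median difference was -0.17 for the 7 bright gamma crystallin probe sets and 0.018 for the 106.

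**Figure D3:**
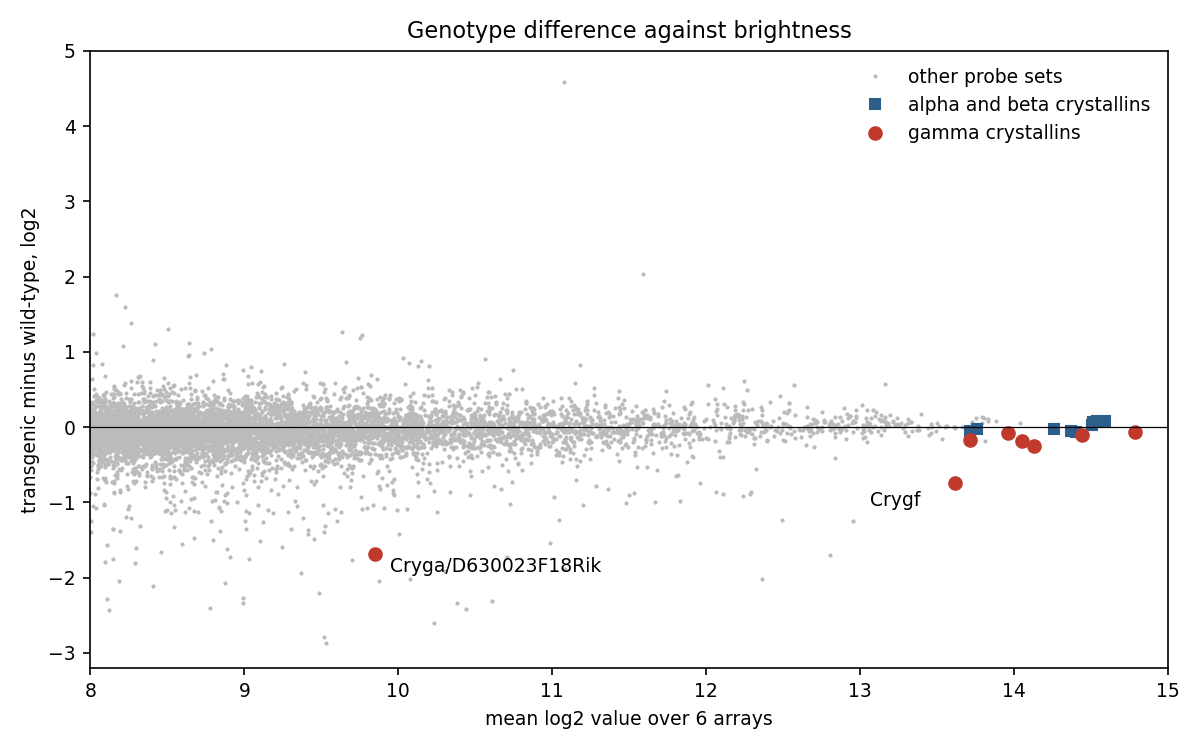
Transgenic minus wild-type log2 difference of each probe set (vertical axis) against its mean log2 value over 6 arrays (horizontal axis, from 8 upward). Gamma crystallins are red circles, alpha and beta crystallins blue squares and other probe sets grey. The scatter narrows toward the bright end, where Crygf lies at -0.75.

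The 10 brightest other probe sets with 1 gene symbol were those of Crybb1, Cryaa, Cryba1, Crybb3, Cryba2, Cryab, Cryba4, Rpl41, Tpt1 and Lim2. Of these, 7 are alpha or beta crystallins. Alpha crystallins are small heat shock proteins that act as chaperones, and beta crystallins are oligomeric relatives of the gamma group. The 8 alpha and beta crystallin genes had 10 probe sets, of which 0 were called higher and 0 lower (limma), and 0 had an unadjusted p under 0.05. By their brightest probe sets, 4 genes lay above 0 and 4 below, with a median difference of 0.0027. Over all 10 probe sets the median was also 0.0027, against -0.18 over all 8 gamma crystallin probe sets, the shared ones included. Of all probe sets 48.8% lay below 0, and of the bright ones 37.7%. Crybb1 stood at 14.64, 14.62 and 14.63 in transgenic lenses, against 14.51, 14.57 and 14.57 in wild-type lenses, a difference of 0.081 ± 0.081 (SE). Cryaa, at 0.083 ± 0.081 (SE), Cryba1, at 0.063, and Crybb3, at 0.029, also had transgenic values wholly above wild-type values. This happened in 4 of the 8 genes, and in 13.2% of all probe sets and 23.6% of the bright ones. Cryba2, at -0.063, had transgenic values wholly below, while Cryab (-0.052), Cryba4 (-0.029) and Crybb2 (-0.023) overlapped. Quantile normalization turned the signs of Crybb3, Cryab and Cryba4 and set Crybb1 to 0, and centring on a common median turned that of Crybb3. The difference between the gamma and the other crystallins as groups was not tested.

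**Figure D4:**
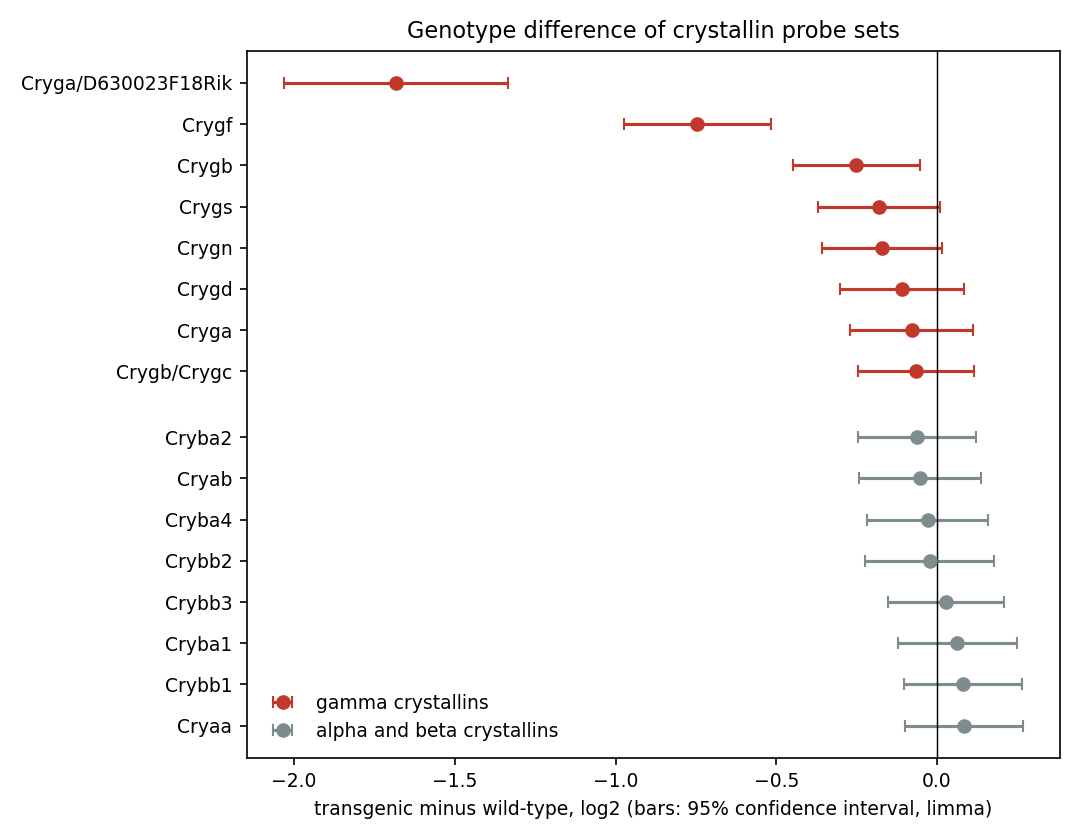
Transgenic minus wild-type log2 difference of the 8 gamma crystallin probe sets (red) and of the brightest probe set of 8 alpha and beta crystallin genes (grey), with limma 95% confidence intervals. The gamma crystallin points lie at or below -0.066, and the others lie between -0.063 and 0.083.

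The genes Crybg1, Crybg2 and Crybg3 encode large proteins with the same domain outside the crystallin clusters. Of their 3 probe sets 2 had means under the median of all probe sets, with 0 called in either direction and 0 at an unadjusted p under 0.05 (limma). The differences were 0.45 for Crybg1, 0.32 for Crybg2 and -0.11 for Crybg3, each with overlapping groups. T3 was the highest transgenic array for all 3, and without it the difference of Crybg1 was -0.0078.

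A list of transcription factors and cofactors, chosen as regulators of gamma crystallin genes, had 17 genes with 37 probe sets. Whether each of them acts on these genes was not tested. Of the 37 probe sets 5 were lower and 1 was higher in transgenic lenses (limma). That is 13.5% and 2.70% of them, against 2.42% and 1.41% of all probe sets. An unadjusted p under 0.05 (limma) was found in 20 of the 37, so many that did not pass were not flat. The median difference was -0.25 over the 37 probe sets and -0.099 over the brightest probe set of each of the 17 genes, by which 1 gene was lower and 1 higher. Foxe3, a forkhead factor of the lens epithelium, was the higher one. It stood at 13.35, 13.39 and 13.37 in transgenic lenses, against 8.65, 8.86 and 8.84 in wild-type lenses (4.59 ± 0.092, SE; limma adjusted p = 3.69e-07). Prox1, a homeobox factor needed for fiber elongation and gamma crystallin expression in the mouse, was lower in 2 of its 3 probe sets. Its brightest one stood at 8.47, 8.17 and 8.24 in transgenic lenses, against 9.21, 9.42 and 9.58 in wild-type lenses (-1.11 ± 0.12, SE; limma adjusted p = 0.00276).

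Maf encodes the basic leucine zipper factor c-Maf, which binds crystallin promoters. Its 6 probe sets were split, with 3 lower at -1.03, -1.13 and -1.06 and the other 3 at -0.099, -0.29 and -0.084 without passing (limma). The brightest of them was at -0.099 ± 0.13 (SE), so the level of Maf depends on which probe set is read. The SOX factor genes Sox1 (-0.056 and -0.47) and Sox2 (-0.60) did not pass, nor did the paired-box gene Pax6 (-0.25 in its brightest probe set) or Hsf4 (-0.28), which encodes a heat shock factor of fiber cells. Six3 (-0.31), Gata3 (-0.46), Pitx3 (0.091) and the coactivator genes Crebbp (-0.34) and Ep300 (-0.033) did not pass either. Among the retinoid receptor genes, Rarb (0.40), Rara (-0.25), Rarg (0.17), Rxra (0.18) and Rxrb (0.034) did not pass in their brightest probe sets. The dimmer probe sets, at 0.59 for Rarg and at 0.35 and 0.19 for Rxra, did not pass either.

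Pearson correlation over the 6 arrays was used to describe which probe sets had patterns most like those of the 2 called members, among 20117 single-gene probe sets at or above the median level. These correlations mostly follow the genotype split. For Crygf the 5 closest were Smco3, Iqcd, the endocytic adaptor gene Ston2, Ankzf1 and the membrane protease gene Adam10, with r from 0.997 to 0.998. Their differences were -1.32 for Smco3, -0.25 for Iqcd, -1.12 for Ston2, -0.17 for Ankzf1 and -0.75 for Adam10. For the shared Cryga probe set they were the kinase gene Nek3, the thiamine triphosphatase gene Thtpa, the corepressor gene Suds3, the kinase gene Stk32a and the stress kinase gene Map3k5, with r from 0.997 to 0.999. Their differences were -0.36 for Nek3, -0.53 for Thtpa, -0.52 for Suds3, -0.50 for Stk32a and -1.50 for Map3k5.

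Genes next to the gamma crystallins in the RefSeq order did not pass the test where they had a single-gene probe set. Dgkg, next to Crygs, and Nub1, beyond Wdr86, had none and were not tested. Beside the chromosome 1 cluster, the 2 probe sets of Akr1cl were at 0.052 and -0.040, and those of Idh1, an isocitrate dehydrogenase gene beyond D630023F18Rik, were at 0.25 and 0.045. Beside Crygf, Pth2r was at -0.22, at a mean of 3.37 in transgenic and 3.59 in wild-type lenses, and the 4 probe sets of Map2 lay between -0.50 and 0.078. Tbccd1, next to Crygs, was at 0.26 and -0.14, and next to Crygn, Wdr86 was at -0.14 and Rheb at 0.0033. Beyond Rheb, the 4 probe sets of Prkag2 lay between -0.58 and -0.073. The one at -0.42 had groups that did not overlap (limma adjusted p = 0.0701). Beyond Pth2r, the 3 probe sets of Pikfyve lay between 0.055 and 0.27. Groups also did not overlap for Pth2r and for the probe sets of Map2 at -0.50, Prkag2 at -0.16, Tbccd1 at 0.26 and Pikfyve at 0.27. Of all probe sets, 13.6% had transgenic values wholly below and 13.2% wholly above.

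The size of the smaller differences depended on the normalization. Quantile normalization gives each rank 1 value on every array, so the probe set of Crygb and Crygc, first on all arrays, was set to the same value of 14.79 throughout and its difference to 0. Under it Crygs changed to -0.064 and Crygb to -0.13, while Crygn stayed at -0.17. Crygf was at -0.73 and the shared Cryga probe set at -1.63. With the arrays centred on a common median the differences were larger, from -0.10 for the probe set of Crygb and Crygc to -1.72 for the shared Cryga probe set. Without T3, the difference was -0.66 for Crygf and -1.67 for the shared Cryga probe set, both still past the test (limma adjusted p = 0.0161 and 0.00356), and the other 6 lay between -0.24 and -0.054. Leaving out any 1 array kept all 8 differences below 0, and Crygf and the shared Cryga probe set passed each time. Crygf ran from -0.82 to -0.66 and the shared probe set from -1.87 to -1.57.

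**Figure D5:**
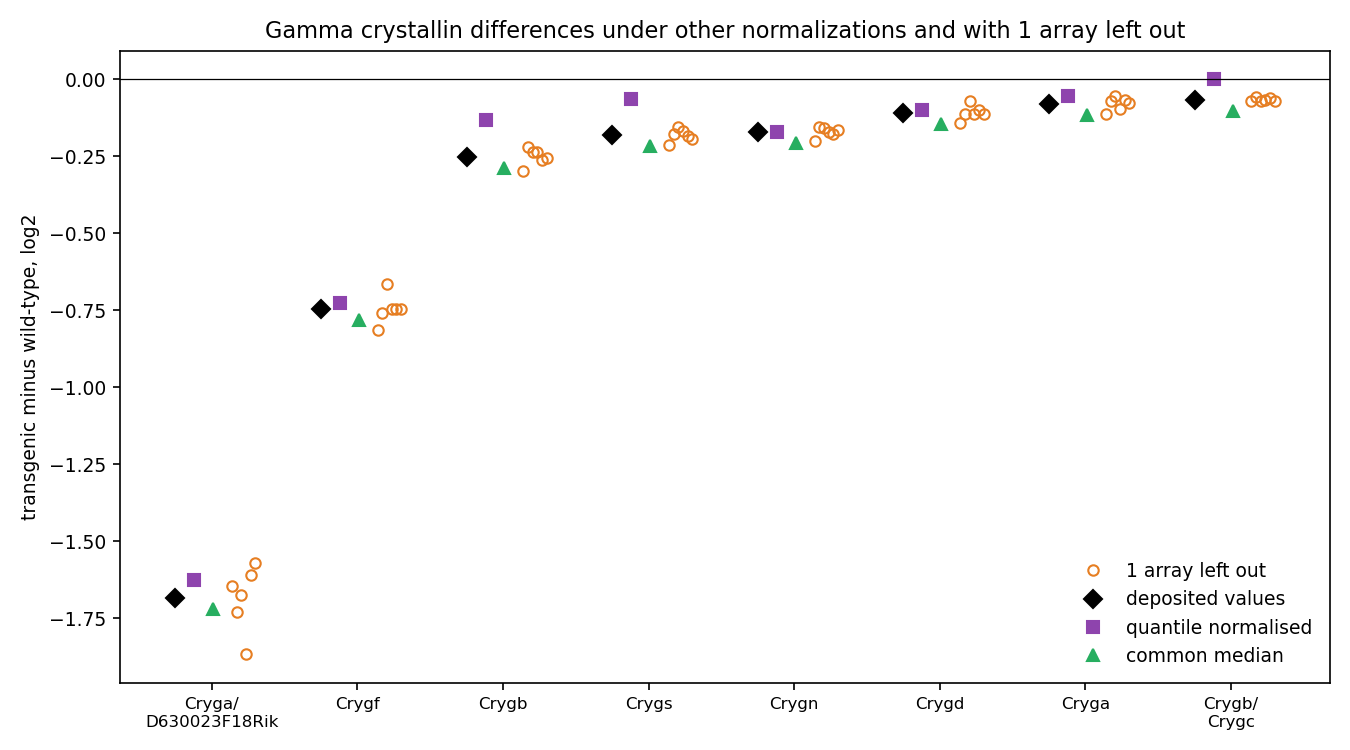
Transgenic minus wild-type log2 difference of each gamma crystallin probe set on deposited values (black), after quantile normalization (purple), after centring on a common median (green) and with 1 array left out (orange circles). The probe set of Crygb and Crygc was at 0 after quantile normalization and -0.066 as deposited.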

How the data were processed

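RNA from whole lenses was labelled by in vitro transcription and hybridised to Affymetrix arrays, per the labels' protocols. The table that the authors deposited holds log2 values, 1 for each probe set on each array. The summarisation and normalization method is not given in the sources used here. The log2 scale was read from the values. Array medians lay between 5.29 and 5.37. The 64 control probe sets were set aside, which left 45037, and no pair of arrays was identical. With 3 arrays a group, precision is limited by their number.

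Gene symbols come from the platform annotation at GEO and were brought up to date with RefSeq's GRCm38.p6 table by gene identifier (99.4% of single-symbol probe sets matched). Genotypes were compared on the deposited values with limma 3.58.1 in R 4.3.3 (lmFit, eBayes), each probe set on its own, with Benjamini-Hochberg adjustment over all of them and a threshold of 0.05. SE and confidence intervals are limma's moderated ones, and SDs are over 3 arrays. Moderation draws each probe set's own spread toward 1 value for all probe sets, bright or dim. Deposited values were preferred to quantile-normalised ones because quantile normalization ties the brightest ranks. The fit was also run on data simulated from limma's own variance model. Those data had no narrower spread at the bright end and no tissue differences between arrays, so they cannot test the fit under either. Member pairs were compared with two-sided exact permutation tests (scipy 1.17.1), and promoters were aligned with Biopython 1.88.

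Named genes are all members, the crystallin and regulator lists, the 10 brightest other single-gene probe sets and the 5 probe sets most like each called member. Members and lists were chosen with earlier results of these data known, and the neighbouring genes, the named marker genes, Vim, the promoter motifs and the brightness limit of 13 after their values were seen. Same-numbered arrays of the genotypes correlated at 0.031 to 0.095 in their deviations from the group means, so the numbers were not taken as pairs.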

Additional observations from a re-analysis of the deposited data

How the results depend on the processing

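Other settings left the calls on the gamma crystallins mostly as they were. The count of lower probe sets, 2 on the deposited values, was 2 with any 1 array left out, after quantile normalization, after centring, with dim probe sets left out, with array weights, with the replicate block and with a change of at least 0.5 required. It was 3 with trended and robust variances, 0 without moderation of the variances, where the fit has few degrees of freedom, and 1 with 1 probe set per gene or with single-gene probe sets only, which leave out the shared Cryga probe set (the single-gene setting was chosen after seeing the data). Without moderation Crygf had a limma adjusted p of 0.0844 and the shared Cryga probe set 0.0810.

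Over all probe sets, 635 were higher and 1088 lower on the deposited values. Centring gave 470 and 1297, quantile normalization 661 and 995, no moderation 51 and 115, 1 probe set per gene 329 and 569, array weights 1059 and 1604, and a change of at least 0.5 gave 410 and 858. With 1 array left out, 130 (without T2) to 409 (without W1) were higher and 380 (without T2) to 920 (without W1) lower, the higher count moving by over 1.5 times each time. The replicate block, for samples that share only a number, gave 261 and 609, with adjusted p = 0.0250 for Crygf and 0.00386 for the shared Cryga probe set (limma), and each transgenic array correlated best with its own number. Regulator probe sets with those of Crybg1 to Crybg3, 5 lower and 1 higher on the deposited values, were 0 lower without moderation, 1 lower with 1 probe set per gene, 3 higher with array weights, and 4 to 7 lower with 1 array left out. Alpha and beta crystallins had 0 calls in every setting.

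Signs turned only in differences that did not pass. Quantile normalization gave Cryab 0.031, Cryba4 0.030, Crybb3 -0.013, Sox1 0.021 and Ep300 0.028, and centring gave Crybb3 -0.0078 and Rxrb -0.0023. With array weights Ep300 was at 0.0080. With 1 array left out the values ran from -0.045 to 0.0018 for Cryba4, -0.062 to 0.025 for Crybb2, -0.0078 to 0.70 for Crybg1, -0.24 to 0.00086 for Maf, -0.27 to 0.10 for Sox1 and -0.095 to 0.036 for Ep300, the end with the turned sign being without T3. They ran from -0.042 (without W1) to 0.18 for Pitx3 and from -0.019 (without T2) to 0.083 for Rxrb, and Ep300 was at 0.017 without W1. The causes were not tested. Pairs of members without overlap numbered 18 after quantile normalization, against 23. The brightest probe set on each array was no control, so the distances from the top did not change when controls were left out.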
